A study of Rattus norvegicus with 6 samples.

Results

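The genes described here encode the chaperones and folding enzymes of the endoplasmic reticulum (ER), the sensors of the unfolded protein response, and targets of the transcription factor ATF4, many of them in amino acid metabolism. They were taken by name from a list of 33 genes. The deposited table of 22250 rat genes held 32 of these names, and all 32 had enough reads to be tested. The listed gene Cth was not found by name; its row stands under another name and is given once, apart from the rest. The members were divided by role into a chaperone arm of 18 genes (chaperones, disulfide isomerases and ER-associated degradation), an ATF4 arm of 8 genes, and 6 sensors and transcription factors.

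RNA was measured in wild-type neonatal rat cardiomyocytes, freed with collagenase from hearts of 1-day-old Sprague-Dawley rats and cultured in medium with 10% serum. The 3 control libraries came from cells given DMSO, the solvent, and the 3 treated libraries from cells given 3Cl-HBA at 40 µM, and the labels give 48 h for both. The series title concerns activation of the hydroxycarboxylic acid receptor HCAR1. The labels do not say whether the 3 libraries of a treatment came from separate cultures or animals, nor how many hearts were pooled, so the spread between libraries may be technical.

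Proteins that enter the secretory pathway fold in the ER with the help of Hsp70- and Hsp90-type chaperones, lectin chaperones that hold glycoproteins, and protein disulfide isomerases. When unfolded protein builds up, IRE1 (encoded by Ern1), PERK (Eif2ak3) and ATF6 (Atf6) signal to the nucleus, where XBP1 and cleaved ATF6 activate chaperone genes. PERK also phosphorylates the initiation factor eIF2, which favours translation of ATF4, and ATF4 activates genes of amino acid synthesis and of the stress response. In heart muscle the ER is continuous with the sarcoplasmic reticulum, so the same compartment stores calcium for contraction.

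Sequence elements of the kinds by which these factors are known to act were searched in the promoters of the members, and a few are printed. Promoter windows from 250 bases before to 50 bases after a RefSeq start site (assembly GRCr8) were found for 27 of the 32 members, all but Atf6, Ern1, Pdia3, Pdia6 and Manf. The ER stress response element (ERSE) was searched as CCAAT, 9 bases of any kind, then CCACG, on both strands. It was present in 22 of 33469 rat promoter windows (0.0657%), and 7 of the 22 belonged to members. These were 6 of 15 windows of the chaperone arm and 0 of 8 of the ATF4 arm. The other was that of Xbp1, 1 of 4 windows of the sensors and transcription factors. The window before the start of Hspa5, which encodes the main Hsp70-type chaperone BiP, is shown whole, with the letters of the element in capitals. Positions count from the start site as 0, and this element lies from -43 to -25.
Hspa5, chr3:38452766-38453015, plus strand: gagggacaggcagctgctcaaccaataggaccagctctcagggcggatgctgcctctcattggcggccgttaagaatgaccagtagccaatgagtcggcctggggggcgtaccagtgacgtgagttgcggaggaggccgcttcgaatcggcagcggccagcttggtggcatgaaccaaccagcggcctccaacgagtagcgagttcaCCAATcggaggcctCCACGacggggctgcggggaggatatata

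Further members with an ERSE are shown by short windows, so that the fixed letters and the variable 9 bases between them can be compared. In Creld2, Calr and the second element of Hsp90b1 the element lies on the opposite strand and reads CGTGG, 9 bases, ATTGG. Hsp90b1, which encodes the ER Hsp90 GRP94, was the member with 2 of them.
Hsp90b1, chr7:23012341-23012475, minus strand: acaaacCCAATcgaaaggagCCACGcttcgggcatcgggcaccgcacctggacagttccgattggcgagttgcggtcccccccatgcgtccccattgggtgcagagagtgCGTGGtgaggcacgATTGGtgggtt
Calr, chr19:40213129-40213159, plus strand: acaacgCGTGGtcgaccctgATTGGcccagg
Dnajc3, chr15:102432528-102432558, plus strand: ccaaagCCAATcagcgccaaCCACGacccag
Creld2, chr7:121789233-121789263, plus strand: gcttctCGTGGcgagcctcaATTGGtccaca
Xbp1, chr14:84604552-84604582, plus strand: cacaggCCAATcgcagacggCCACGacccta

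A related element, ERSE-II, was searched as ATTGG, 1 base, CCACG. It was present in 17 of the 33469 windows (0.0508%), among them those of Hyou1, Herpud1 and Dnajb11, so 9 of the 15 chaperone-arm windows held 1 of the 2 forms. The C/EBP-ATF response element (CARE), bound by ATF4, was searched as TGATG, 1 base, AA. It was found in 3.98% of all windows and in 2 of the 8 of the ATF4 arm, Trib3 and Chac1, and also in Herpud1. The letters TGACGTG, the core of the element bound by XBP1 (UPRE), were in 1.81% of all windows and in those of Hspa5 and Hyou1; in Hyou1 they overlap an ERSE-II. All sequences are printed in the direction of the gene. Capitals mark ERSE-II and CARE letters below, ERSE-II in Hyou1 reads CGTGG, 1 base, CCAAT, and CARE reads TT, 1 base, CATCA here because these lie on the opposite strand.
Hyou1, chr8:53602688-53602810, plus strand: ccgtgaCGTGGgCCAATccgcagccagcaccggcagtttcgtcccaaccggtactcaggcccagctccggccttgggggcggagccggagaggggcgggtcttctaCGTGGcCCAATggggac
Herpud1, chr19:10614815-10614897, minus strand: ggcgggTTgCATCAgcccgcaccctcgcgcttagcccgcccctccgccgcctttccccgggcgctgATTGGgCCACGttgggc
Dnajb11, chr11:91672794-91672816, minus strand: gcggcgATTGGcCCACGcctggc
Trib3, chr3:161275541-161275560, minus strand: tcaggtTTaCATCAgccggg
Chac1, chr3:126795958-126795977, plus strand: ccgccgTTgCATCActcctg

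A match is a description of letters in a window, not of binding, and a window without a match says only that these letters are not in it.

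**Figure D1:**
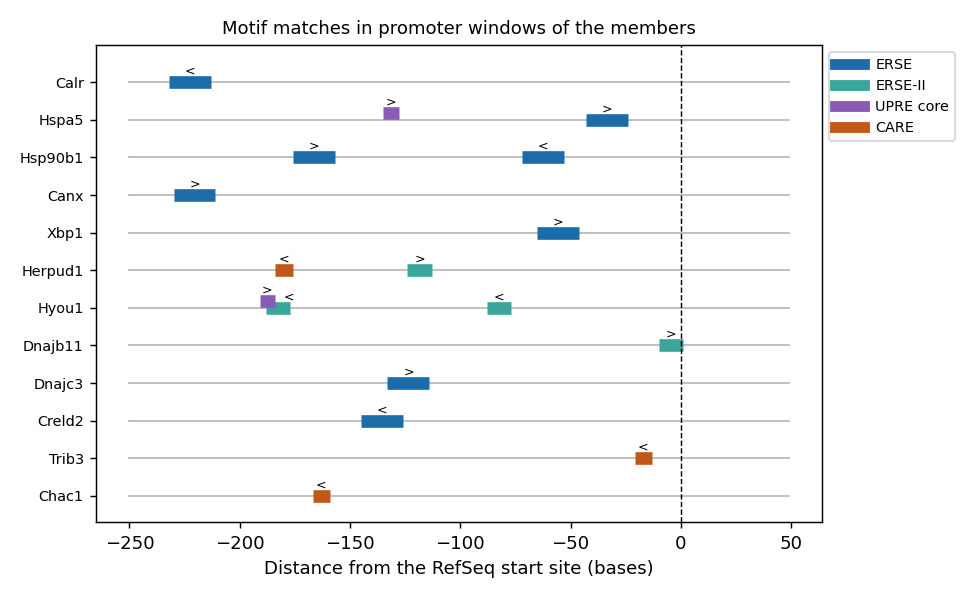
Motif matches in the promoter windows of the 12 members that had any, ordered by level; the horizontal axis is the distance in bases from the RefSeq start site (dashed line), grey lines are the windows, coloured bars the matches and arrowheads their strand. ERSE and ERSE-II bars lie in chaperone-arm genes and Xbp1, and the CARE bars in Trib3, Chac1 and Herpud1.

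The 6 libraries held 13240800 to 17202191 reads assigned to genes, and the 3 shallowest were the controls. Heart muscle markers were present as labelled: 12 of 12 cardiomyocyte markers exceeded 1 FPKM (read counts per unit of gene length and of library total) in every library. So did 8 of 8 fibroblast, 6 of 6 smooth muscle and pericyte, and 4 of 5 endothelial markers. Pecam1, a further listed endothelial marker, was not found. Of the macrophage markers 5 of 6 did so, and of the markers of secretory plasma cells 1 of 4. The summed FPKM of the cardiomyocyte list was 10590 to 11220 in DMSO and 10740 to 10980 after 3Cl-HBA, and that of the fibroblast list 3154 to 3330 and 3190 to 3235. The macrophage list summed to 219.8 to 240.5 and 235.5 to 245.5 FPKM, with a median log2 fold change of 0.11 and 0 of 6 genes called; its part in the results below was not tested. In bulk RNA, fewer cells of a type and less RNA per cell cannot be told apart, and the share of each cell type in the levels below was not measured.

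The chaperone arm was expressed at high levels, and most of the ATF4 arm at lower ones that were still above the median gene; only Chac1 lay below it. Levels between genes are given in FPKM, which divides by gene length. The chaperone arm ran from 20.6 to 642.1 FPKM with a median of 101.4 FPKM over the 6 libraries. The ATF4 arm ran from 6.92 to 45.3 FPKM with a median of 37.55 FPKM. The 6 sensors and transcription factors ran from 8.95 FPKM for Ern1 to 118.5 FPKM for Atf4. The median of all 13903 tested genes was 10.3 FPKM. By percentile among tested genes, the chaperone arm lay between 70.1 and 99.45, and the ATF4 arm between 39.6 and 87.0. Reads of the chaperone arm made up 0.848% to 0.893% of a library. Those of the sensors and transcription factors made up 0.0589% to 0.0635%, and those of the ATF4 arm 0.0483% to 0.0512%.

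**Figure D2:**
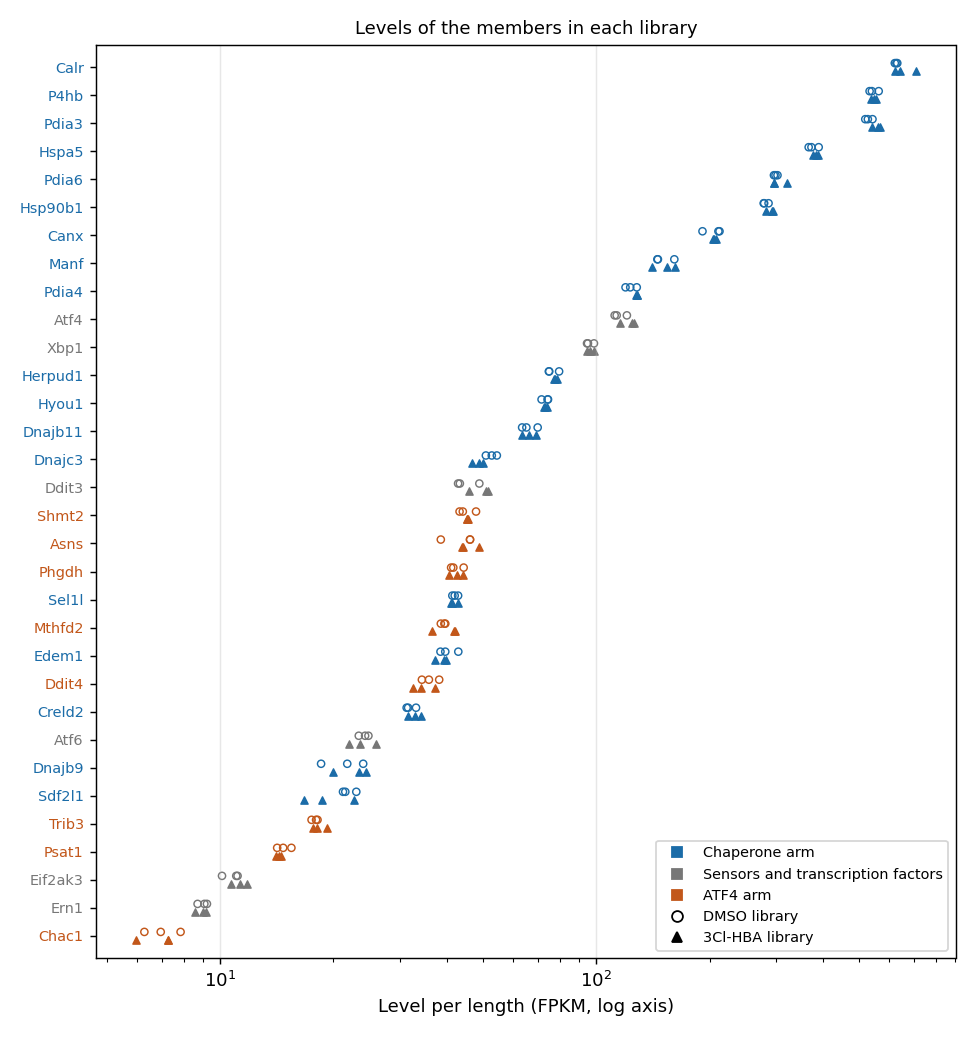
Level of each of the 32 members in FPKM on a log axis, 1 point per library (open circles DMSO, filled triangles 3Cl-HBA, 3 each), with colours for the arms. Calr is at the top with 621.1 to 709.1 FPKM and Chac1 at the bottom with 5.96 to 7.85 FPKM, and DMSO and 3Cl-HBA points of a gene lie together.

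Calr, which encodes the lectin chaperone and calcium-binding protein calreticulin, had the highest level of the members. Its values, here and below ordered by replicate number, were 630.6, 627.1 and 621.1 FPKM in DMSO and 709.1, 642.9 and 622.1 FPKM after 3Cl-HBA. The groups overlapped, and 3Cl-HBA replicate 1 stood above the other 5 libraries. The log2 fold change, 3Cl-HBA minus DMSO, was 0.073 (SE 0.044, edgeR adjusted p 0.975). Canx, the membrane-bound relative of calreticulin, had 205.0 ± 11.8 FPKM in DMSO and 206.2 ± 1.83 FPKM after 3Cl-HBA (mean ± SD, n = 3 libraries each, as below). The FPKM ratio of Calr to Canx was 3.06 ± 0.16 in DMSO and 3.19 ± 0.20 after 3Cl-HBA, and the libraries of the groups overlapped.

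Hspa5 had 366.6, 372.8 and 389.8 FPKM in DMSO and 387.7, 382.9 and 375.7 FPKM after 3Cl-HBA. The treated values lay inside the range of the controls, and the log2 fold change came to 0.024 with an SE of 0.043 (edgeR adjusted p 0.991). This transcript is a usual readout of ER stress, and the 95% interval ran from a fold change of 0.958 to 1.08. The gene (ENSRNOG00000018294) lies on chromosome 3 from 13838304 to 13842762 on the plus strand, by the positions in the deposited table, whose build was not stated. Hsp90b1 had 281.5 ± 4.602 FPKM in DMSO and 290.0 ± 7.17 FPKM after 3Cl-HBA. Its FPKM ratio to Hspa5 was 0.748 ± 0.030 and 0.759 ± 0.011.

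The co-chaperones and nucleotide exchange factor of BiP had lower levels than BiP itself. Hyou1, an Hsp70-related exchange factor, had 73.3 ± 1.62 FPKM in DMSO and 73.2 ± 0.61 FPKM after 3Cl-HBA, and its FPKM ratio to Hspa5 was 0.195 ± 0.0041 and 0.192 ± 0.0038. The J-domain protein gene Dnajb11 had 66.1 ± 3.29 and 66.3 ± 2.72 FPKM, a ratio to Hspa5 of 0.176 ± 0.0031 and 0.174 ± 0.0065. For both ratios the libraries of the 2 groups overlapped. Dnajb9, another J-domain protein that restrains IRE1, had 21.4 ± 2.74 and 22.6 ± 2.34 FPKM.

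Dnajc3 was the 1 member of 32 whose treated libraries lay wholly apart from the controls. It encodes p58IPK, a BiP co-chaperone that also inhibits PERK (ENSRNOG00000010352, chromosome 15, 104186792 to 104226329, plus strand). Its levels were 50.8, 52.7 and 54.4 FPKM in DMSO and 46.6, 48.6 and 49.9 FPKM after 3Cl-HBA. All treated values were below all control values, by a small margin between 49.9 and 50.8 FPKM. The log2 fold change of -0.12 had an SE of 0.060 and a 95% interval from -0.24 to 0.00030. It did not pass (edgeR unadjusted p 0.0506, adjusted p 0.959). Groups did not overlap for 5.22% of all tested genes on the lower side and 5.24% on the higher side, and the members had 1 of 32 lower and 0 higher.

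Sdf2l1, a partner of the Dnajb11-BiP complex, had the most negative log2 fold change of the members, and its treated libraries differed widely. It had 21.5, 21.2 and 23.0 FPKM in DMSO and 22.7, 16.7 and 18.6 FPKM after 3Cl-HBA. The first treated library lay among the controls, the third lay below all controls, and the second was the lowest of all 6. The log2 fold change was -0.18 (SE 0.10, edgeR adjusted p 0.975). Over the alternatives it ranged from -0.31 without 3Cl-HBA replicate 1 to -0.088 without 3Cl-HBA replicate 2. Sdf2l1 was the 1 member whose 95% interval reached beyond a fold change of 1.25.

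The secreted ER proteins Manf and Creld2, both induced in ER stress, also lay within their spread. Manf, a growth factor retained in the ER, had 145.7, 161.1 and 145.2 FPKM in DMSO and 162.1, 140.2 and 154.2 FPKM after 3Cl-HBA. Both the highest and the lowest of the 6 values were treated libraries. Creld2 had 32.01 ± 0.995 and 32.9 ± 1.31 FPKM, with a log2 fold change of 0.043 (SE 0.074).

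The protein disulfide isomerases, which make and rearrange disulfide bonds, were among the highest members. P4hb, also a subunit of collagen prolyl hydroxylase, had 545.0 ± 15.9 FPKM in DMSO and 545.4 ± 8.83 FPKM after 3Cl-HBA. Pdia3, the partner of calreticulin and calnexin, had 518.4, 541.8 and 526.6 FPKM in DMSO and 568.2, 559.4 and 539.5 FPKM after 3Cl-HBA. Its groups overlapped by 1 library each, and the log2 fold change was 0.073 (SE 0.042, edgeR unadjusted p 0.0905, adjusted p 0.975). Pdia3 lies wholly within the span of Ppip5k1 on the opposite strand, over 23725 bases; Ppip5k1 had 13961 reads over the 6 libraries and Pdia3 91166, and with the strand setting not given their reads cannot be told apart. Pdia6 had 299.5 ± 3.26 and 304.7 ± 13.6 FPKM and Pdia4 123.5 ± 4.25 and 128.0 ± 0.56 FPKM. All 4 isomerases had log2 fold changes above 0, from 0.0028 to 0.073, and 0 of 4 passed; P4hb and Pdia6 turned below 0 when single libraries were left out.

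The genes of ER-associated degradation, which export misfolded proteins to the proteasome, were measured at 39.6 to 77.1 FPKM. Herpud1, a membrane scaffold of the export complex, had 76.4 ± 2.75 FPKM in DMSO and 77.7 ± 0.78 FPKM after 3Cl-HBA. Sel1l, the adaptor of the ubiquitin ligase HRD1, had 42.1 ± 0.75 and 41.8 ± 0.92 FPKM. Edem1, a mannosidase-like protein that marks glycoproteins for export, had 40.4 ± 2.31 and 38.8 ± 1.45 FPKM and a log2 fold change of -0.053 (SE 0.057). None of the 3 passed, and in each the groups overlapped.

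Among the regulators, the transcripts of the sensors were far scarcer than those of the transcription factors Atf4 and Xbp1. Ern1 had 9.22, 8.71 and 9.08 FPKM in DMSO and 8.98, 8.57 and 9.15 FPKM after 3Cl-HBA. Eif2ak3 had 10.8 ± 0.56 and 11.3 ± 0.58 FPKM, and Atf6 24.1 ± 0.72 and 23.8 ± 2.03 FPKM. Xbp1 had 96.0 ± 2.23 and 96.4 ± 1.91 FPKM. Counts per gene do not separate spliced from unspliced Xbp1, nor do they show ATF6 cleavage or ATF4 translation, the steps by which these proteins are switched on.

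Atf4 and Ddit3 had the most positive log2 fold changes among the regulators, within the spread of the libraries. Atf4 (ENSRNOG00000017801, chromosome 7, 121480723 to 121482772, plus strand) had 111.8, 113.2 and 120.5 FPKM in DMSO and 124.1, 125.6 and 115.6 FPKM after 3Cl-HBA. Only 3Cl-HBA replicate 3 fell inside the control range, and edgeR gave a log2 fold change of 0.082 with a 95% interval of -0.019 to 0.18 and an adjusted p of 0.980. Ddit3, which encodes the pro-apoptotic factor CHOP, had 42.9, 48.8 and 43.4 FPKM in DMSO and 51.4, 50.8 and 45.9 FPKM after 3Cl-HBA. Here DMSO replicate 2 lay above 3Cl-HBA replicate 3, and edgeR gave 0.13 with a 95% interval of -0.019 to 0.29 and an adjusted p of 0.975. Ddit3 overlaps Mars1 on the opposite strand by 72 bases. Mars1 had 12337 reads over the 6 libraries and Ddit3 3911. With the strand setting not given, reads in the overlap cannot be told apart. The FPKM ratio of Ddit3 to Atf4 was 0.392 ± 0.037 in DMSO and 0.406 ± 0.0087 after 3Cl-HBA.

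In the ATF4 arm, the stress targets Trib3, Chac1 and Ddit4 had no common direction. Trib3, a pseudokinase that inhibits AKT, had 17.9 ± 0.34 FPKM in DMSO and 18.3 ± 0.78 FPKM after 3Cl-HBA. Chac1, which degrades glutathione, was the scarcest member at 6.95, 6.29 and 7.85 FPKM in DMSO and 7.24, 7.26 and 5.96 FPKM after 3Cl-HBA. The highest value was a control and the lowest a treated library, with the other 4 in mixed order. Ddit4, an inhibitor of mTORC1 also induced by hypoxia and glucocorticoids, had 36.1 ± 1.93 and 34.7 ± 2.33 FPKM. Their log2 fold changes were 0.035, -0.039 and -0.058 in that order, with SEs of 0.080, 0.14 and 0.068.

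Of the enzymes of amino acid and one-carbon metabolism, Shmt2, Asns, Phgdh and Mthfd2 had levels close to each other, and Psat1 and Cth were lower. Asns, asparagine synthetase (ENSRNOG00000007546, chromosome 4, 33743364 to 33761163, minus strand), had 46.1, 46.1 and 38.6 FPKM in DMSO and 44.1, 48.8 and 43.9 FPKM after 3Cl-HBA. DMSO replicate 3 was the lowest of the 6, and the log2 fold change of 0.066 (SE 0.064, edgeR adjusted p 0.984) turned to -0.015 without that library. The serine synthesis genes Phgdh and Psat1 had 42.4 ± 1.76 and 14.8 ± 0.65 FPKM in DMSO and 42.5 ± 1.93 and 14.3 ± 0.20 FPKM after 3Cl-HBA. The mitochondrial one-carbon enzymes Shmt2 and Mthfd2 had 45.1 ± 2.44 and 39.2 ± 0.56 FPKM in DMSO and 45.4 ± 0.13 and 40.1 ± 3.02 FPKM after 3Cl-HBA. Psat1 was lower than the enzyme before it in the same pathway in every library, while Shmt2, Asns, Phgdh and Mthfd2 overlapped with their neighbours in the order of levels. Cth, cystathionine gamma-lyase, has a row under a locus name (ENSRNOG00000010658) that carries its Entrez identifier, with 4.36 ± 0.33 and 4.46 ± 0.61 FPKM and a log2 fold change of 0.031 (SE 0.16).

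None of the 32 members was called between 3Cl-HBA and DMSO. At an edgeR adjusted p under 0.05, 0 of 32 members and 0 of 13903 tested genes (0%) were called, and the smallest adjusted p of a member was 0.959. At an unadjusted p under 0.05, 0 members passed, against 2.52% of all tested genes on the higher side and 2.59% on the lower. DESeq2, limma-voom, edgeR without a filter on low counts and edgeR with a replicate block also called 0 members. Each had 0 members at an unadjusted p under 0.05. The remaining alternatives likewise called 0. At an unadjusted p under 0.05 they had 1 member when scaled by library totals and 2 with the length trend removed. Leaving out single libraries gave 0 to 3, the 3 without 3Cl-HBA replicate 3. Fold changes beyond 1.25 in either direction were outside the 95% interval for 31 of 32 members, and beyond 1.5 for all 32. Of the 8397 tested genes at or above the level of the lowest member, 87.3% had an interval inside 1.25-fold, and of all tested genes 59.6%.

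**Figure D3:**
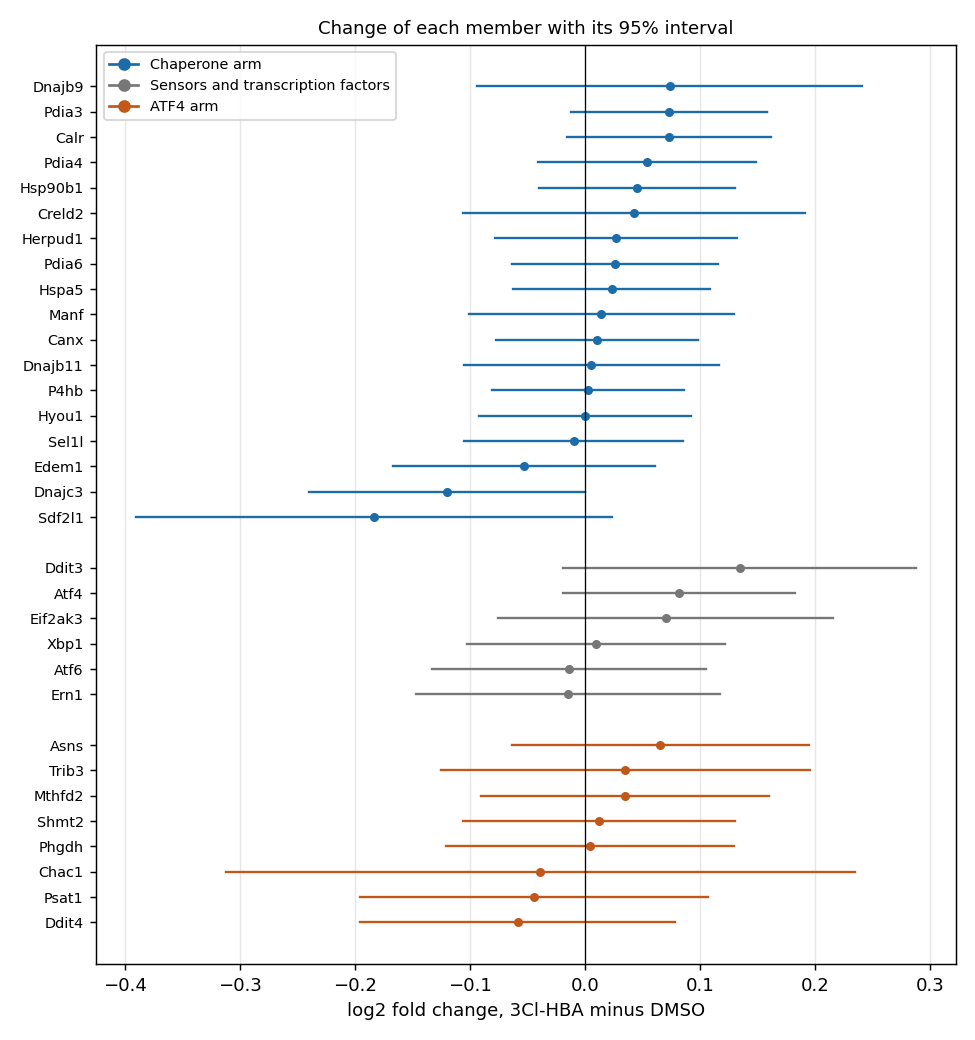
log2 fold change of each of the 32 members (3Cl-HBA minus DMSO, 3 libraries each) with its 95% interval from edgeR, ordered within the chaperone arm, the sensors and transcription factors, and the ATF4 arm. Every interval includes 0, and the widest are those of Chac1 and Sdf2l1.

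Set side by side, the arms stood apart in median level and had overlapping ranges of log2 fold change. The median log2 fold change was 0.019 for the chaperone arm (range -0.18 to 0.074), 0.0088 for the ATF4 arm (-0.058 to 0.066) and 0.040 for the sensors and transcription factors (-0.015 to 0.13), beside -0.00052 for all tested genes. In the chaperone arm 14 of 18 genes were above 0, in the ATF4 arm 5 of 8, and among the regulators 4 of 6, where 49.8% of all tested genes were above 0. These genes were not called, and no test was made over the lists. The count of 14 became 10 without DMSO replicate 1 and 11 without DMSO replicate 3 or 3Cl-HBA replicate 1, and the median of the chaperone arm became 0.0071 without DMSO replicate 1.

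By library, neither the chaperone arm nor the ATF4 arm separated the treatments. The mean over the chaperone arm of log2 CPM (reads scaled to the library total after TMM adjustment) minus each gene's own mean came to -0.021, 0.0089 and 0.0026 for the controls, by replicate number, and to 0.030, -0.0085 and -0.013 for the treated. DMSO replicate 1 was the lowest and 3Cl-HBA replicate 1 the highest, and of the other 4, both controls lay above both treated libraries. For the ATF4 arm the values were 0.016, -0.016 and -0.0021 in DMSO and 0.035, 0.026 and -0.059 after 3Cl-HBA, so both the highest and the lowest library were treated ones. For the regulators they were -0.031, -0.018 and -0.016 in DMSO and -0.0053, 0.072 and -0.0018 after 3Cl-HBA. In that group of 6 genes the treated libraries lay above the controls, by a gap smaller than the spread among the treated, and 3Cl-HBA replicate 2 stood highest. The count of these 6 genes above their own mean was 3 in each control and 2, 5 and 3 in the treated libraries, and their summed FPKM overlapped, with 293.7, 304.1 and 302.3 against 311.8, 321.3 and 301.6.

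**Figure D4:**
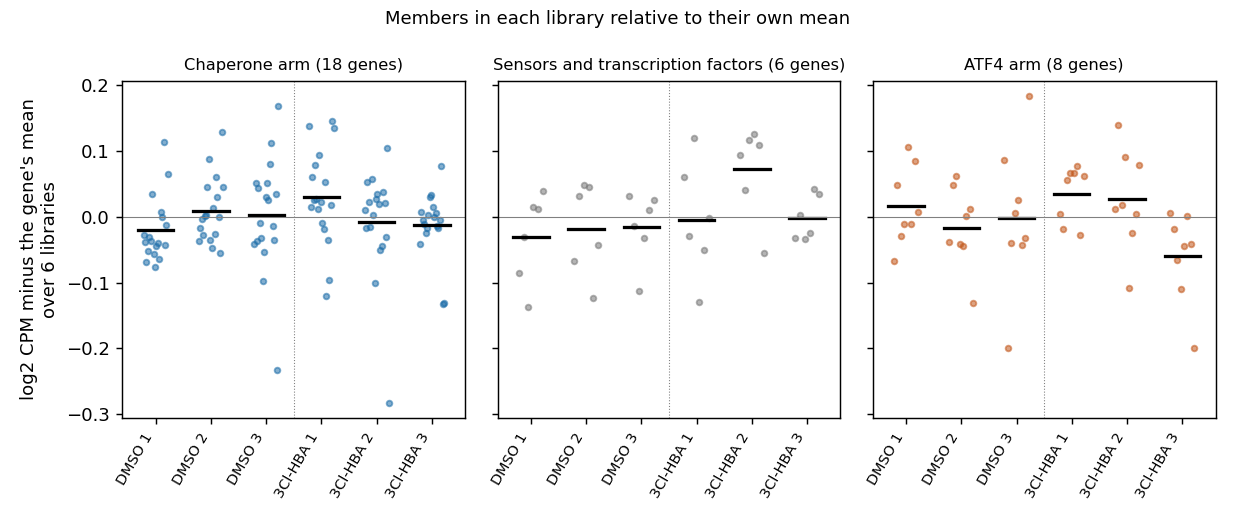
Members in each library as log2 CPM minus the gene's mean over the 6 libraries, 1 point per gene, with the mean of the arm as a black bar; panels are the chaperone arm (18 genes), the sensors and transcription factors (6) and the ATF4 arm (8). The bars stay between -0.059 and 0.072, and those of the chaperone and ATF4 arms overlap between treatments.

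The members varied little between libraries. The median coefficient of variation within a group was 3.84% in DMSO and 3.79% after 3Cl-HBA over the 32 members, against 5.34% and 4.88% for tested genes at or above the lowest member's level. It was 3.58% and 3.13% in the chaperone arm and 4.71% and 5.25% in the ATF4 arm, whose levels are lower. The members had a median level of 46.2 FPKM and the tested genes set beside them 20.4 FPKM. The sets were thus not matched for level, and its part in the spread was not tested. Gene length, with which log2 fold changes over all genes had a Pearson correlation of -0.055, had one of -0.0051 with those of the 32 members; genes are not independent replicates, and these are descriptions.

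Other genes of the pathway, from lists chosen with earlier results of these data known, gave no calls either. Of 34 tested genes of ER folding, 23 had log2 fold changes above 0 and 0 were called. The highest were Serpinh1, the collagen chaperone HSP47, at 870.3 ± 35.8 FPKM in DMSO and 861.8 ± 20.8 FPKM after 3Cl-HBA, and the prolyl isomerase Ppib at 313.5 ± 8.91 and 315.0 ± 24.9 FPKM. Erp44, a thioredoxin-like protein that retains clients in the ER, had the smallest p of that list, with treated libraries above all controls, at 63.5 ± 3.92 and 69.9 ± 2.07 FPKM (log2 fold change 0.14, SE 0.058, edgeR unadjusted p 0.0204, adjusted p 0.959). At an unadjusted edgeR p under 0.05, the list had 1 gene on the higher side and 1 on the lower, against 2.52% and 2.59% of all tested genes. Groups did not overlap for 2 genes of the list on the higher side and 1 on the lower, against 5.24% and 5.22% of all tested genes.

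Of 23 tested genes of ER-associated degradation, 9 were above 0 and 0 were called. The ATPase Vcp, which pulls proteins out of the membrane, had 180.5 ± 3.44 FPKM in DMSO and 179.6 ± 4.75 FPKM after 3Cl-HBA. The smallest p was that of the ligase Marchf6 (log2 fold change -0.094, SE 0.059, edgeR adjusted p 0.980). Of 23 other sensors and factors, 6 were above 0 and 0 were called. The most abundant were Tmbim6, an ER membrane inhibitor of cell death, at 217.2 ± 7.49 and 213.1 ± 3.80 FPKM, and the ATF4 relative Atf5 at 79.3 ± 3.55 and 77.9 ± 5.76 FPKM. Eif2s1, the subunit of eIF2 that PERK phosphorylates, had the smallest p of that list, at 62.2 ± 3.71 and 69.2 ± 3.38 FPKM (log2 fold change 0.16, SE 0.060, edgeR unadjusted p 0.0133, adjusted p 0.959). Its treated libraries lay above all controls, by a small margin between 65.6 and 65.8 FPKM. In that list groups did not overlap for 2 genes on the higher side and 1 on the lower, against 5.24% and 5.22% of all tested genes.

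Of 32 other tested genes of the ATF4 amino acid response, 10 were above 0 and 0 were called. The amino acid transporter genes Slc38a2 and Slc3a2 had 170.1 ± 4.83 and 119.6 ± 0.75 FPKM in DMSO and 165.4 ± 5.30 and 115.6 ± 2.38 FPKM after 3Cl-HBA, and for Slc3a2 all treated libraries lay below all controls. Sesn2, a leucine sensor of the mTORC1 pathway, had 21.0 ± 0.91 and 23.4 ± 0.65 FPKM, with treated libraries above all controls (log2 fold change 0.16, SE 0.061, edgeR unadjusted p 0.0107, adjusted p 0.959). It had the smallest p of that list. Groups did not overlap for 3 genes of the list on the higher side and 3 on the lower, against 5.24% and 5.22% of all tested genes. The annotation in the deposited table gave the pathway of protein processing in the ER to 163 genes, among them 14 of the 18 genes of the chaperone arm and 0 of the 8 of the ATF4 arm. Of the 131 tested genes of that pathway outside the members, 67 were above 0, 0 were called, and 4 had an unadjusted edgeR p under 0.05. Of these, 2 were on the higher side and 2 on the lower, against 2.52% and 2.59% of all tested genes.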

How the data were processed

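Raw whole-number read counts of each gene were deposited, per the file headers, beside FPKM computed by the authors. A recalculation from counts, gene lengths and library totals gave these FPKM to a relative gap of 8.2e-08. The labels' protocols name a KAPA RiboErase kit, Illumina sequencing and DESeq2; no source used here names an aligner, counter, strand setting or genome build. Columns were matched to samples through the treatment protocol and replicate number in the labels.

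Counts of all genes were tested by the quasi-likelihood test of edgeR 4.0.16 under R 4.3.3, with robust dispersions, TMM factors and no block. The filter filterByExpr (minimum count 10) left 13903 genes. p-values were adjusted by Benjamini-Hochberg over all of them, and genes under 0.05 were called. SEs are the unshrunken absolute log2 fold change divided by the square root of F. FPKM were described, not tested. Levels per library use log2(CPM + 0.5) where log2 CPM is named. DESeq2 1.42.0, limma-voom (limma 3.58.1), other scaling, no filter, a replicate block, each library left out and, added after the data were seen, removal of each library's length trend were alternatives. The procedure was tested on simulated counts.

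The members and lists were chosen with earlier results of these data known. All members are named; of each other list, the 2 most abundant tested genes and the gene with the smallest p are; 1 such gene and 1 promoter window are not reported here. If several rows had a name, the row with most reads was used, and 32 members matched 1 row each. No 2 libraries were alike within sampling noise (chi-square per degree of freedom at least 2.74). Promoter windows come from RefSeq (GRCr8), matched by symbol.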

Additional observations from a re-analysis of the deposited data

How the results depend on the processing

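No member was called under any of the 12 alternatives, and 16 of the 32 kept the sign of their log2 fold change in all of them, among them Calr, Hspa5, Hsp90b1, Pdia3, Pdia4, Atf4, Ddit3, Dnajc3 and Sdf2l1. The count of genes called over all genes, 0, became 1 with limma-voom (Vwa5a) and 2 with no filter on low counts (Myh9l1 and Kmt2a), named after their values were seen, and ran from 0 to 8 when single libraries were left out, with 8 without DMSO replicate 3; none of these is a member. With the replicate block, which the labels do not say pairs the libraries, 0 genes were called. The chaperone and ATF4 arms then had medians of 0.019 and 0.0093. Deviations of same-numbered libraries from their group means had correlations of -0.069, -0.044 and -0.045, and no library correlated best with its own number. The median of the ATF4 arm turned to -0.0053 with the length trend removed and ran from -0.011 to 0.039 without single libraries. Scaling by library totals turned Hyou1 to -0.0018. Removing the length trend turned P4hb to -0.0060, Xbp1 to -0.0062, Dnajb11 to -0.0086, Phgdh to -0.011, Sel1l to 0.021, Atf6 to 0.00031 and Ern1 to 0.020. Leaving out single libraries turned the sign for these and other genes, with ranges of -0.016 to 0.026 for P4hb, -0.0069 to 0.043 for Pdia6, -0.037 to 0.035 for Canx, -0.029 to 0.068 for Manf, -0.0096 to 0.027 for Xbp1, -0.020 to 0.0097 for Hyou1, -0.025 to 0.045 for Dnajb11, -0.018 to 0.057 for Shmt2, -0.015 to 0.106 for Asns, -0.021 to 0.037 for Phgdh, -0.032 to 0.0056 for Sel1l, -0.0040 to 0.093 for Mthfd2, -0.086 to 0.044 for Atf6, -0.020 to 0.161 for Dnajb9, -0.040 to 0.0094 for Ern1 and -0.116 to 0.047 for Chac1; the cause was not tested. With length-scaled CPM, 0 members changed place in the order of levels. With 3 libraries a group, differences inside the intervals given are not excluded. Chac1 and Sdf2l1, with the fewest reads, had among the widest intervals. The intervals are for single genes and not adjusted, so they do not mark the limit of what could be called. Erp44, with an interval from 0.023 to 0.26, was not called (edgeR adjusted p 0.959).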

Other observations

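The promoters with an ERSE outside the members were looked at as a description, with genes chosen by the motif search alone. The 22 windows belonged to 21 gene symbols, 14 of them not members, and 8 of those 14 were tested. Their levels ran from 5.38 to 282.0 FPKM with a median of 17.3 FPKM, against 32.5 to 642.1 FPKM with a median of 205.6 FPKM for the 7 members with an ERSE. Among the 14, and named after their values were seen, were Ero1b, an ER oxidase that recharges disulfide isomerases, at 6.06 FPKM, the RNA-binding protein gene Hnrnpa3 at 282.0 FPKM, and Derl3, a degradation factor of secretory cells, listed at 0 in each library. Log2 fold changes of the 8 tested genes ran from -0.059 to 0.19, with a median of -0.013 and 0 called by edgeR at an adjusted p under 0.05, and 0 of them had an unadjusted p under 0.05. Of the chaperone-arm windows, the 9 with an ERSE or ERSE-II had a median level of 77.1 FPKM and the 6 without 40.8 FPKM, with ranges of 32.5 to 642.1 and 20.6 to 545.2 FPKM that overlapped.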
